A study of Homo sapiens with 9 samples.

Results

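The messenger RNA of 10 genes of the ATF4 branch of the integrated stress response and of the endoplasmic reticulum stress response was followed in human embryonic stem cells kept with butyrate and DZNep. The genes were ATF4, ATF3, DDIT3, DDIT4, TRIB3, ASNS, CHAC1, HSPA5, XBP1 and HERPUD1, 10 of the 19775 genes that have a probe set of their own on the array, and every probe set annotated to one of them was taken. They had 17 probe sets: 4 genes had 1 and 6 had several, and 13 of the probe sets passed a filter on low signal (above the array's own median on at least 3 of 9 arrays). All 10 genes kept at least 1 probe set, and the brightest of each stood for its gene. The arrays fell into 3 groups of 3. The first was the subline HSF-6 (S9) kept with both agents, the second the subline HSF-6 (8) kept with both agents, and the control was HSF-6 (8) kept without them. HSF-6 is an established human embryonic stem cell line. Butyrate inhibits histone deacetylases, and DZNep inhibits S-adenosylhomocysteine hydrolase and lowers histone methylation. All cells were collected after 11 passages, and the cultures were grown for 6 days. No untreated HSF-6 (S9) sample was analysed here, so agents and subline cannot be told apart where HSF-6 (S9) is set against the control, and the agents were always given together. The 3 arrays of a group carry the same number with 0 or more prime marks. No label says that they came from separate cultures, so the p-values measure the spread between these arrays, which may be technical.

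ATF4 is a transcription factor whose protein is made more readily when a kinase phosphorylates the translation factor eIF2, as happens when amino acids run short, when unfolded protein collects in the endoplasmic reticulum, when haem is lacking or when double-stranded RNA is sensed. It switches on genes for amino acid supply and, in prolonged stress, DDIT3 (the factor CHOP) and its partners. The endoplasmic reticulum has its own sensors, ERN1 (IRE1), ATF6 and EIF2AK3 (PERK). ERN1 splices XBP1 messenger RNA to make an active factor that, with ATF6, raises chaperones such as HSPA5. An array of this kind reads messenger RNA level. It does not read ATF4 translation, and these values do not separate spliced from unspliced XBP1. In bulk RNA, fewer cells of a type and less RNA per cell cannot be told apart.

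The arrays were compared with each other before the genes were examined. Over 13519 genes, the standard deviation (SD) of the log2 difference between arrays of the same group ranged from 0.346 to 0.67 over 9 pairs. The closest of all 36 pairs crossed groups: the first treated HSF-6 (S9) array and the first treated HSF-6 (8) array differed by an SD of 0.296. The third array of treated HSF-6 (8) had no close neighbour, with an SD of 0.619 to 0.788 from the other 8 arrays. The second array of treated HSF-6 (S9) lay at 0.531 to 0.817 and the third control array at 0.541 to 0.817, and the most distant of all pairs was these 2. The third treated HSF-6 (8) array is called the endoderm-high array here. All 12 endoderm markers tested were highest on it, with a median of 3.43 log2 units above the mean of the control arrays; that median was 0.99 and 1.44 on the other two treated HSF-6 (8) arrays. The third array of each group also had the group's highest signal on the 3′ control probe set for 18S ribosomal RNA, at 1517 in treated HSF-6 (S9), 850 in treated HSF-6 (8) and 963 in the control, against 385 to 542 on the other 6 arrays. Pluripotency genes, which define embryonic stem cells, were read in every group. The summed signal of 13 pluripotency genes was 165116 to 273801 in treated HSF-6 (S9), 176773 to 190396 in treated HSF-6 (8) and 180857 to 259952 in the control.

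None of the 10 genes passed the test in any comparison. A call needed a Benjamini-Hochberg adjusted p below 0.05 over all 13519 genes, from limma on log2(signal + 16), and a change of at least 2-fold. Treated HSF-6 (S9) against the control gave 0 of 10 genes, beside 1.18% of all genes called. Treated HSF-6 (8) against the control gave 0 of 10, beside 0.851%, and treated HSF-6 (S9) against treated HSF-6 (8) gave 0 of 10, beside 0.0074%. At backgrounds this low, a count of 0 among 10 genes is no result about the genes, and the same holds for a count of 0 in each gene list given further on. The 13 probe sets gave 0 calls as well. Of 29328 probe sets, 0.389% were called in treated HSF-6 (S9) against the control, 0.3% in treated HSF-6 (8) against the control and 0% between the treated sublines.

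At an unadjusted limma p below 0.05 there were 5 genes in treated HSF-6 (S9) against the control. CHAC1, ATF3, XBP1 and ASNS were lower, beside 6.06% of all genes, and DDIT4 was higher, beside 8.07%. In treated HSF-6 (8) against the control there was 1, CHAC1, which was lower, beside 3.05%. Between the treated sublines there were 0, beside 2.54%. The comparisons with the control share its 3 arrays, so their values stand side by side and are not independent. On the third treated HSF-6 (S9) array CHAC1, ATF3, XBP1 and ASNS had their lowest signal of all 9 arrays. So did 14.0% of all genes.

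**Figure D1:**
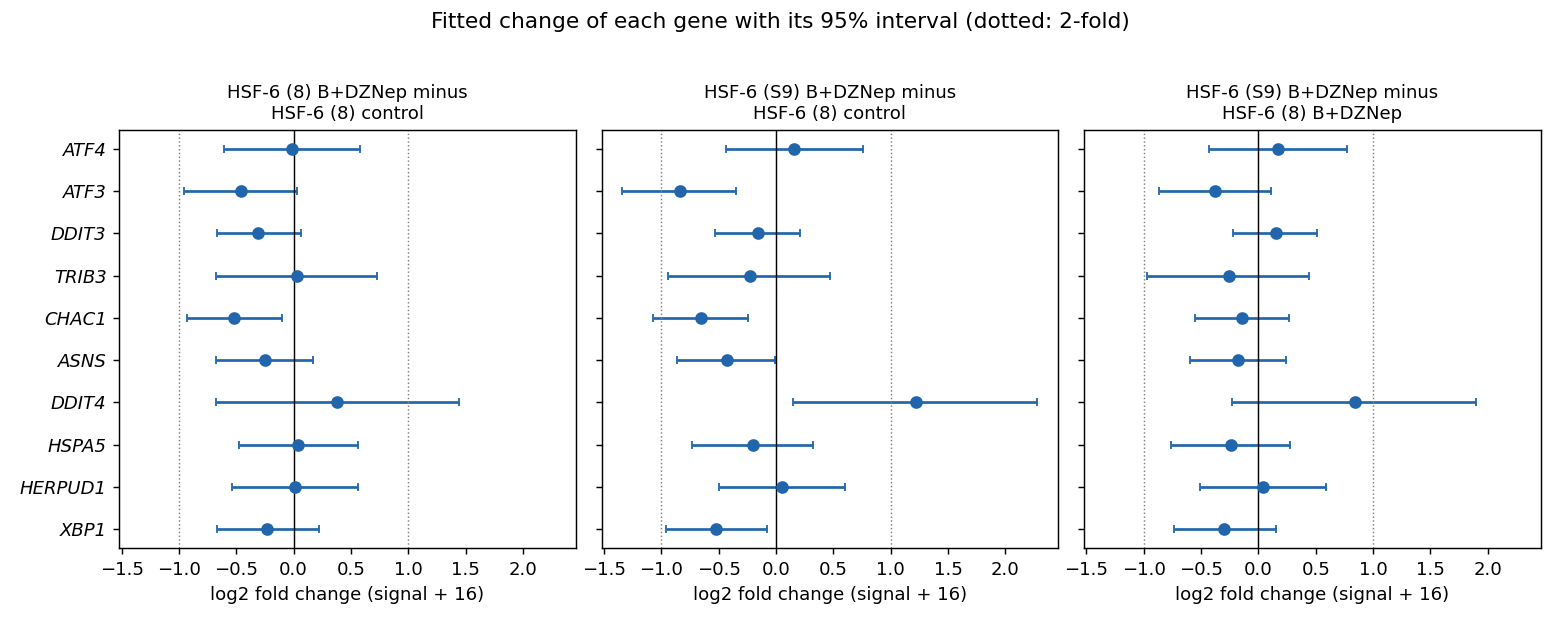
Log2 fold change of each of the 10 genes on the log2(signal + 16) scale, with its 95% interval, for treated HSF-6 (S9) against the control, treated HSF-6 (8) against the control, and the treated sublines against each other. The dotted lines mark a 2-fold change. The intervals of ATF3, CHAC1, XBP1, ASNS and DDIT4 lie to one side of 0 in treated HSF-6 (S9), and that of CHAC1 does in treated HSF-6 (8).

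The median log2 change of the 10 genes against the control was -0.22 in treated HSF-6 (S9) and -0.12 in treated HSF-6 (8), where the median over all genes was 0.005 in treated HSF-6 (S9) and 0.004 in treated HSF-6 (8). The estimate was below 0 for 7 of 10 genes in treated HSF-6 (S9), against 49.4% of all genes, and for 6 of 10 in treated HSF-6 (8), against 49.5%. The signals of treated HSF-6 (S9) lay wholly below those of the control for 5 genes (ATF3, CHAC1, ASNS, HSPA5 and XBP1), beside 8.86% of all genes, and wholly above for DDIT4, beside 11.4%. The signals of treated HSF-6 (8) lay wholly below for ATF3 and CHAC1, beside 7.04%, and wholly above for 0 genes, beside 10.3%. ATF3 and CHAC1 were thus lower on all 6 treated arrays than on any control array, as were 3.67% of all genes.

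For ATF4 itself no difference beyond the spread of the arrays was detected. Its signal was 9107, 18121 and 9547 in treated HSF-6 (S9), 9200.4, 9551 and 12484 in treated HSF-6 (8), and 11064, 10595 and 9649 in the control. A single array, the second of treated HSF-6 (S9), stood far above the other 8, and the groups overlapped. The log2 change against the control was 0.16 ± 0.27 (SE; 95% interval -0.44 to 0.76; adjusted p = 0.841) in treated HSF-6 (S9) and -0.01 ± 0.27 (-0.61 to 0.58; adjusted p = 0.997) in treated HSF-6 (8). When that second array was left out, the HSF-6 (S9) estimate was -0.16. On that array 20.8% of all genes had their highest signal and 20.5% their lowest.

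Genes that act around ATF4 were listed beside it. Of 14 genes for the eIF2 kinases, eIF2, its exchange factor and its phosphatase subunits, 0 were called, beside 1.18% of all genes in treated HSF-6 (S9) and 0.851% in treated HSF-6 (8), and the median log2 change against the control was -0.18 in treated HSF-6 (S9) and -0.02 in treated HSF-6 (8). EIF2AK4, the kinase GCN2 that senses uncharged transfer RNA, read 1283, 679.7 and 999 in treated HSF-6 (S9), 1044, 1047 and 1034 in treated HSF-6 (8), and 1543, 1709 and 2265 in the control. All 6 treated arrays lay below the 3 control arrays, as for 3.67% of all genes. The log2 change of EIF2AK4 was -0.91 ± 0.24 (adjusted p = 0.118) in treated HSF-6 (S9) and -0.79 ± 0.24 (adjusted p = 0.246) in treated HSF-6 (8). EIF2AK2, the kinase PKR that binds double-stranded RNA, had log2 changes of -0.45 ± 0.25 in treated HSF-6 (S9) and -0.26 ± 0.25 in treated HSF-6 (8). Among dimerization partners and relatives of ATF4, 8 were tested and 0 called, with medians of -0.07 in treated HSF-6 (S9) and 0.03 in treated HSF-6 (8). FOS had 0.37 ± 0.52 in treated HSF-6 (S9) and 0.69 ± 0.52 in treated HSF-6 (8), and ATF5, a factor related to ATF4, had 0.22 ± 0.23 in treated HSF-6 (S9) and 0.35 ± 0.23 in treated HSF-6 (8).

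Targets of ATF4 can carry a C/EBP-ATF response element. Promoters were searched for it on both strands as TGATGNAAN, where N is any base, in RefSeq windows of 250 bases before to 50 after each transcription start (GRCh38.p14). It was present in 3.61% of 35116 such windows and in 4 of the 17 windows of the 10 genes, some of which overlap. These 4 belong to ATF3, ASNS, CHAC1 and HERPUD1. No window of DDIT3, DDIT4 or TRIB3, which ATF4 can also induce, held a match. The windows of ASNS, CHAC1 and ATF3 are printed 5′ to 3′ on the gene's strand, with the match in capitals, because these are the ATF4 targets whose signals lay wholly below the control in treated HSF-6 (S9). ASNS (chr7:97872359-97872658, minus strand) has the match 68 to 60 bases before the start. CHAC1 (chr15:40953221-40953520, plus strand) has it on the opposite strand, 210 to 202 bases before the start. ATF3 (chr1:212565157-212565456, plus strand, the more upstream of its starts) has it 191 to 183 bases before. A match is a description of letters and not a shown binding site.
ASNS: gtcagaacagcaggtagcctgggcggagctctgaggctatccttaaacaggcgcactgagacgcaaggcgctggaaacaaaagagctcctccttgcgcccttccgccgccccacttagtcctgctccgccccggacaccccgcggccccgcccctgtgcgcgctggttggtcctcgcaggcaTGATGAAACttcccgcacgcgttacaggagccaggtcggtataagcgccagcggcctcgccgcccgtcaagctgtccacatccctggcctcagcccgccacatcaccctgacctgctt
CHAC1: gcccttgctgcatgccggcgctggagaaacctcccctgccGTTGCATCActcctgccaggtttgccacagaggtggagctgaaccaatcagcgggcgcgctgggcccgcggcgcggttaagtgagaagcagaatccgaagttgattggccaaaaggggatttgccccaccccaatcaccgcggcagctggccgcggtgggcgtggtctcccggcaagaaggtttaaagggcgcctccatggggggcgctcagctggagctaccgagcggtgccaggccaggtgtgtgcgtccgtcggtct
ATF3: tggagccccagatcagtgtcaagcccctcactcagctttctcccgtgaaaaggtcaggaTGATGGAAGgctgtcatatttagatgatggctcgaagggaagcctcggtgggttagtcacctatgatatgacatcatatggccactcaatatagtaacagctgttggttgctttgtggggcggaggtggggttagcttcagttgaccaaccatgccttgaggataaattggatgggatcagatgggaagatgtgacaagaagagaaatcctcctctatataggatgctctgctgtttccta

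CHAC1, an enzyme that degrades glutathione and a target of ATF4, was low on every treated array. Its signal was 460.5, 416 and 315 in treated HSF-6 (S9), 429.9, 388 and 489 in treated HSF-6 (8), and 599, 675 and 609 in the control. The highest treated array, at 489, lay below the lowest control array, at 599. Means were 397 ± 74.4 in treated HSF-6 (S9), 436 ± 51.1 in treated HSF-6 (8) and 628 ± 41.1 in the control (SD, n = 3 each). The log2 change was -0.65 ± 0.18 (SE; 95% interval -1.07 to -0.24; adjusted p = 0.138) in treated HSF-6 (S9) and -0.52 ± 0.18 (-0.93 to -0.10; adjusted p = 0.348) in treated HSF-6 (8), and neither passed the test.

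ATF3, a stress-induced factor downstream of ATF4, also read lower on every treated array with its brightest probe set. Its signal was 556, 447 and 321 in treated HSF-6 (S9), 559.7, 551 and 586 in treated HSF-6 (8), and 959, 720.5 and 703 in the control. The treated HSF-6 (8) arrays lay in a narrow band below all control arrays, and the HSF-6 (S9) arrays spread more widely below them. The log2 change was -0.84 ± 0.22 (SE; 95% interval -1.34 to -0.35; adjusted p = 0.111) in treated HSF-6 (S9) and -0.46 ± 0.22 (-0.96 to 0.03; adjusted p = 0.556) in treated HSF-6 (8). A dimmer ATF3 probe set that passed the filter read 138, 112 and 52.6 in treated HSF-6 (S9), 123, 137 and 119 in treated HSF-6 (8), and 220.1, 119 and 119.5 in the control. Its groups overlapped, at log2 changes of -0.56 ± 0.33 in treated HSF-6 (S9) and -0.20 ± 0.33 in treated HSF-6 (8).

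ASNS, which makes asparagine and is a well-studied ATF4 target, read 2683, 3279 and 2544 in treated HSF-6 (S9), 2806, 3074 and 3780 in treated HSF-6 (8), and 3433, 3631 and 4434 in the control. The HSF-6 (S9) arrays lay below all control arrays, and 1 of the 3 treated HSF-6 (8) arrays, the endoderm-high one, lay inside the control range. The log2 change was -0.43 ± 0.19 (SE; 95% interval -0.86 to -0.01; adjusted p = 0.345) in treated HSF-6 (S9) and -0.25 ± 0.19 (-0.68 to 0.17; adjusted p = 0.81) in treated HSF-6 (8).

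Other ATF4 targets of amino acid supply had estimates mostly below 0, and 0 of 18 tested were called. The estimate was below 0 for 16 of 18 in treated HSF-6 (S9), against 49.4% of all genes, and for 15 of 18 in treated HSF-6 (8), against 49.5%. The median was -0.34 in treated HSF-6 (S9) and -0.16 in treated HSF-6 (8). By array the median difference from the control mean was -0.26, -0.11 and -0.56 in treated HSF-6 (S9). In treated HSF-6 (8) it was -0.28, -0.21 and 0.06. On the third treated HSF-6 (S9) array 9 of 18 had their lowest signal of all 9 arrays, beside 14.0% of all genes. CBS, which starts the conversion of homocysteine to cysteine, read 5281, 7387 and 3841 in treated HSF-6 (S9), 5340, 5517 and 5775 in treated HSF-6 (8), and 9830, 8430.4 and 7314 in the control. The treated HSF-6 (8) arrays were all below the control and 1 HSF-6 (S9) array lay inside its range. The log2 change of CBS was -0.67 ± 0.24 (adjusted p = 0.233) in treated HSF-6 (S9) and -0.61 ± 0.24 (adjusted p = 0.41) in treated HSF-6 (8). SLC7A11, the cystine transporter subunit, had estimates on the other side of 0, 0.28 ± 0.40 in treated HSF-6 (S9) and 0.46 ± 0.40 in treated HSF-6 (8). Of 12 transfer RNA synthetase genes tested, 0 were called, and the median was -0.09 in treated HSF-6 (S9) and -0.04 in treated HSF-6 (8). WARS1, the tryptophan enzyme, had log2 changes of 0.42 ± 0.27 in treated HSF-6 (S9) and 0.46 ± 0.27 in treated HSF-6 (8), and AARS1, the alanine enzyme, had -0.18 ± 0.24 in treated HSF-6 (S9) and -0.23 ± 0.24 in treated HSF-6 (8).

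For DDIT3 and TRIB3 no difference beyond the spread of the arrays was detected. DDIT3, the factor CHOP, read 208, 235 and 199.7 in treated HSF-6 (S9), 194, 167 and 216 in treated HSF-6 (8), and 216, 252 and 255 in the control. Its arrays overlapped, and the log2 change was -0.16 ± 0.16 (SE; 95% interval -0.53 to 0.21; adjusted p = 0.729) in treated HSF-6 (S9) and -0.31 ± 0.16 (-0.67 to 0.06; adjusted p = 0.651) in treated HSF-6 (8). TRIB3, a pseudokinase induced by ATF4 and CHOP, read 259, 369.7 and 235 in treated HSF-6 (S9), 224, 327 and 544 in treated HSF-6 (8), and 301, 292 and 426 in the control. Its 3 groups overlapped, with the highest signal on the endoderm-high array. For TRIB3 the log2 change was -0.23 ± 0.31 (-0.94 to 0.47; adjusted p = 0.798) in treated HSF-6 (S9) and 0.03 ± 0.31 (-0.68 to 0.73; adjusted p = 0.997) in treated HSF-6 (8), and -0.29 in treated HSF-6 (8) when the endoderm-high array was left out. The dimmer TRIB3 probe set ranged from 32.3 to 125 in treated HSF-6 (S9), from 20.1 to 163 in treated HSF-6 (8) and from 79.3 to 122 in the control.

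DDIT4 had the largest estimate of the 10 genes in treated HSF-6 (S9) against the control. It encodes REDD1, a brake on the growth kinase mTORC1 that ATF4, HIF1 and glucocorticoids can induce. Its signal was 6792, 7610.2 and 6108 in treated HSF-6 (S9), 6254, 5906 and 1492 in treated HSF-6 (8), and 3109.8, 3439 and 2334 in the control. The HSF-6 (S9) arrays and 2 of the 3 treated HSF-6 (8) arrays lay well above the control, and the endoderm-high array had the lowest signal of all 9. The mean was 6837 ± 752 in treated HSF-6 (S9), 4551 ± 2655 in treated HSF-6 (8) and 2961 ± 567 in the control (SD, n = 3 each). The log2 change was 1.22 ± 0.47 (SE; 95% interval 0.15 to 2.28; adjusted p = 0.283) in treated HSF-6 (S9) and 0.38 ± 0.47 (-0.68 to 1.44; adjusted p = 0.937) in treated HSF-6 (8). When the endoderm-high array was left out of the fit, DDIT4 in treated HSF-6 (S9) passed the test at a log2 change of 1.22 and an adjusted p of 0.0196, as it did at an adjusted p of 0.0479 when only the 6 arrays compared were fitted. The estimate in treated HSF-6 (8) was then 1.05, which missed the threshold at an adjusted p of 0.0779, and it was 0.02 when the first treated HSF-6 (8) array was left out instead. On the endoderm-high array 18.3% of all genes had their lowest signal.

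**Figure D2:**
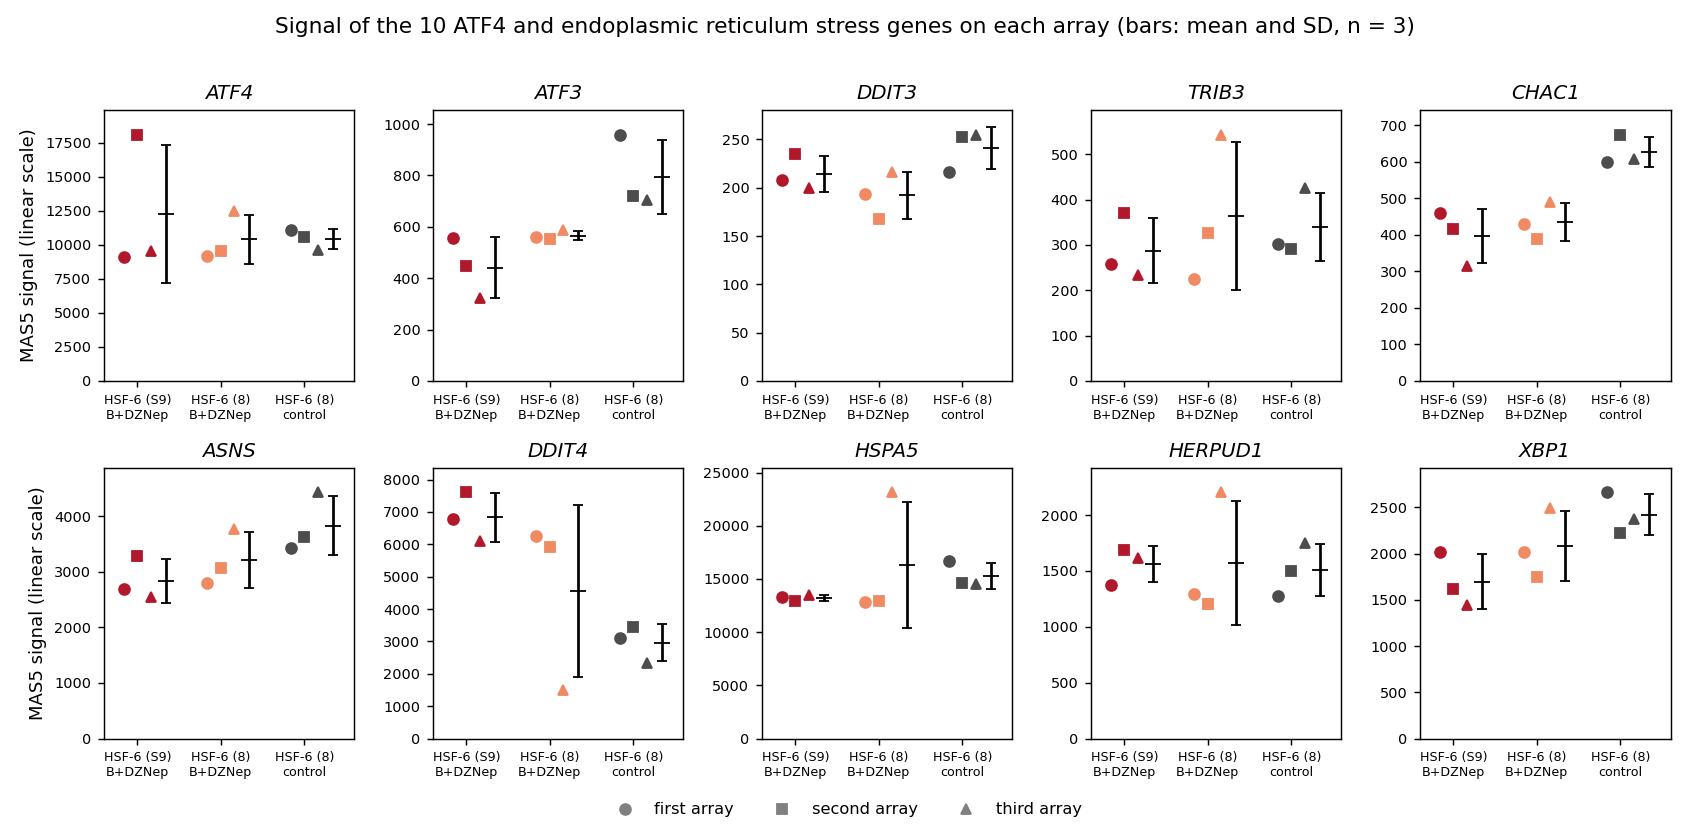
MAS5 signal, on a linear axis that starts at 0 in each panel, of the 10 genes on each of the 9 arrays, with treated HSF-6 (S9) left, treated HSF-6 (8) in the middle and untreated HSF-6 (8) right; marker shapes give the array within its group, and bars give the mean and SD (n = 3). ATF3 and CHAC1 sit lower on all 6 treated arrays than on any control array, and DDIT4 sits above the control on 5 of them, with the endoderm-high array at 1492.

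Genes that respond to hypoxia through HIF1, a factor that can also induce DDIT4, were listed for comparison. Of 11 tested, 0 were called, and the estimate was above 0 for 9 in treated HSF-6 (S9), against 50.6% of all genes, and for 9 in treated HSF-6 (8), against 50.5%, with a median of 0.26 in treated HSF-6 (S9) and 0.29 in treated HSF-6 (8). By array the median difference from the control mean was 0.34, 0.24 and 0.24 in treated HSF-6 (S9), and 0.36, 0.31 and -0.10 in treated HSF-6 (8). The part of HIF1 in the DDIT4 signal was not tested. NDRG1 read 248.8, 290.1 and 312 in treated HSF-6 (S9), 248, 258 and 268 in treated HSF-6 (8), and 131, 182 and 197 in the control. Its treated arrays all exceeded the control, as for 5.78% of all genes. The log2 changes of NDRG1 were 0.70 ± 0.18 (adjusted p = 0.114) in treated HSF-6 (S9) and 0.58 ± 0.18 (adjusted p = 0.268) in treated HSF-6 (8). VEGFA, the vascular growth factor, had 0.31 ± 0.21 (adjusted p = 0.561) in treated HSF-6 (S9) and 0.77 ± 0.21 (adjusted p = 0.164) in treated HSF-6 (8). Of 13 other targets of ATF4 and CHOP tested, VEGFA among them, 0 were called and the median was 0.04 in treated HSF-6 (S9) and -0.02 in treated HSF-6 (8). GDF15, a stress cytokine, had 0.50 ± 0.33 (adjusted p = 0.557) in treated HSF-6 (S9) and 0.99 ± 0.33 (adjusted p = 0.302) in treated HSF-6 (8).

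Genes of the endoplasmic reticulum arm carry a stress element, searched on both strands as CCAAT and CCACG with 9 bases between them, and in a second form as ATTGG and CCACG with 1 base between them. The element was in 0.0769% and its second form in 0.0541% of the 35116 windows. HSPA5 (chr9:125241294-125241593, minus strand) has the element 66 to 48 bases before its start, and XBP1 (chr22:28800520-28800819, minus strand, the more upstream of its starts) has it 52 to 34 bases before. HERPUD1 (chr16:56931892-56932191, plus strand) has the second form 117 to 107 bases before its start and the C/EBP-ATF letters, on the opposite strand, 177 to 169 bases before, and these do not overlap. The windows are shown, with matches in capitals, because these are the members of this arm. A cAMP response element (TGACGTCA) was in 1.85% and an XBP1 site (TGACGTGG) in 0.729% of all windows, and 0 of the 10 genes had either.
HSPA5: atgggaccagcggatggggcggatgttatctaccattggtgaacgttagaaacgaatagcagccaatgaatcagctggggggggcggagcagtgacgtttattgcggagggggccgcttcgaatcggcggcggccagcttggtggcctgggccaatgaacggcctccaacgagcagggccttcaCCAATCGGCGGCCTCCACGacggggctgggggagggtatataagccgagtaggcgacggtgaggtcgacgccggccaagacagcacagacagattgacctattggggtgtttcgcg
XBP1: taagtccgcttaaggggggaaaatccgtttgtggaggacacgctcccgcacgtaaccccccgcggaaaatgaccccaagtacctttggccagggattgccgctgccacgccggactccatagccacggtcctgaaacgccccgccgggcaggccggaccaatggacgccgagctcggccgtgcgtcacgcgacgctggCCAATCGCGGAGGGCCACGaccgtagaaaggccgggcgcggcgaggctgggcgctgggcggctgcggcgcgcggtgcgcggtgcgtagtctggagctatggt
HERPUD1: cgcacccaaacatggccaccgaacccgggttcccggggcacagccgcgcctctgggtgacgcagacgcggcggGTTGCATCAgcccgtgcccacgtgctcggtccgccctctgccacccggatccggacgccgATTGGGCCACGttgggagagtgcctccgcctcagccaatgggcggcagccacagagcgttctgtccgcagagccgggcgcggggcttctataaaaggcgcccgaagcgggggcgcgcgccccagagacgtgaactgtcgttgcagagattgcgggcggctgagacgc

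HSPA5, the chaperone BiP, read 13338, 12919 and 13472 in treated HSF-6 (S9), 12853, 12912 and 23161 in treated HSF-6 (8), and 16722, 14601 and 14503 in the control. The HSF-6 (S9) arrays and 2 of the treated HSF-6 (8) arrays lay below the control, and the endoderm-high array above it. The log2 change was -0.20 ± 0.23 (SE; 95% interval -0.73 to 0.32; adjusted p = 0.761) in treated HSF-6 (S9) and 0.04 ± 0.23 (-0.48 to 0.56; adjusted p = 0.992) in treated HSF-6 (8), and -0.24 in treated HSF-6 (8) when the endoderm-high array was left out. A dimmer HSPA5 probe set read 328, 325.5 and 614 in treated HSF-6 (S9), 326.5, 329.9 and 843 in treated HSF-6 (8), and 359.7, 270.0 and 317 in the control. It was highest on the endoderm-high array, and its groups overlapped. Its estimates lay above 0, at log2 changes of 0.35 ± 0.39 in treated HSF-6 (S9) and 0.50 ± 0.39 in treated HSF-6 (8).

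XBP1, the factor spliced by ERN1, read 2022, 1622 and 1439.9 in treated HSF-6 (S9), 2014, 1745 and 2495 in treated HSF-6 (8), and 2664, 2225 and 2376 in the control. The HSF-6 (S9) arrays all lay below the control, and 1 treated HSF-6 (8) array, the endoderm-high one, lay inside its range. For XBP1 the log2 change was -0.52 ± 0.20 (SE; 95% interval -0.96 to -0.08; adjusted p = 0.266) in treated HSF-6 (S9) and -0.23 ± 0.20 (-0.67 to 0.22; adjusted p = 0.861) in treated HSF-6 (8). HERPUD1, which helps remove unfolded protein from the endoplasmic reticulum, read 1377, 1684 and 1615 in treated HSF-6 (S9), 1297, 1202 and 2205 in treated HSF-6 (8), and 1278, 1499.6 and 1749.7 in the control. Its groups overlapped, and the log2 change was 0.05 ± 0.25 (-0.50 to 0.60; adjusted p = 0.948) in treated HSF-6 (S9) and 0.01 ± 0.25 (-0.54 to 0.56; adjusted p = 0.997) in treated HSF-6 (8). The HERPUD1 estimate in treated HSF-6 (8) was -0.26 when the endoderm-high array was left out.

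On the endoderm-high array 3 of 10 members, HSPA5, HERPUD1 and TRIB3, had their highest signal of all 9 arrays, as did 15.1% of all genes. Of 16 endoplasmic reticulum chaperones tested, 10 were highest there, among them SDF2L1 at 2172, with 493.1 to 1059.6 on the other 8 arrays. In the other direction, 2 of the 16, DNAJB9 and DNAJC10, had their lowest signal there, as did 18.3% of all genes. SDF2L1, DNAJB9 and DNAJC10 were named after their values were seen. The median difference of the chaperones from the control mean was -0.04, 0.08 and -0.05 in treated HSF-6 (S9), and -0.01, -0.15 and 0.30 in treated HSF-6 (8). All 12 endoderm markers were highest on the endoderm-high array, which was named for this, so it is no further finding. Their summed signal was 3328 to 4605 in treated HSF-6 (S9), 3308.5 to 18850.4 in treated HSF-6 (8) and 1352 to 1890.1 in the control. Of 13 fibroblast markers 8 were highest on the endoderm-high array. Their sums over all 13 were 35615 to 48034 in treated HSF-6 (S9), 35299.5 to 71926 in treated HSF-6 (8) and 31819 to 42355 in the control. The markers not tested included ALB, APOB, HNF4A and FOXA1 of the endoderm list and LUM, POSTN and FAP of the fibroblast list. The part of such cells in the values of the 10 genes was not tested.

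**Figure D3:**
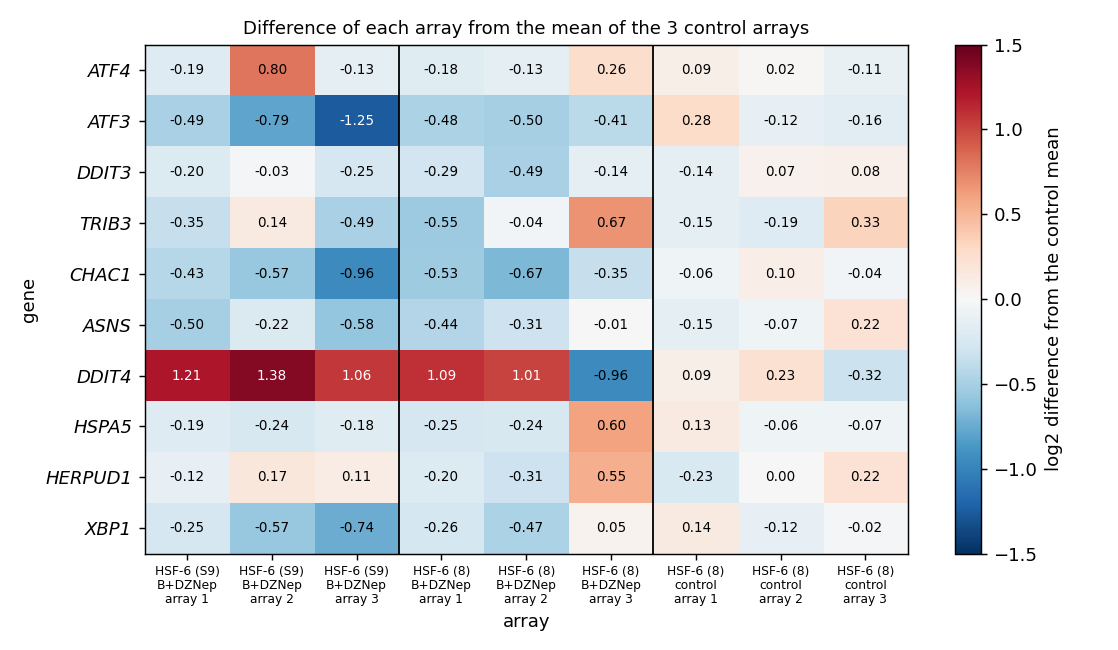
Log2 difference of each array from the mean of the 3 control arrays for the 10 genes (rows), with treated HSF-6 (S9), treated HSF-6 (8) and control arrays from left to right; the colour scale is centred on 0. In treated HSF-6 (8), DDIT4 shows 1.09, 1.01 and -0.96, HSPA5 shows -0.25, -0.24 and 0.60, HERPUD1 shows -0.20, -0.31 and 0.55, and TRIB3 shows -0.55, -0.04 and 0.67, with the endoderm-high array last.

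Within groups the members did not all vary together over the arrays. After the group means were removed, Pearson's r over the 9 arrays was 0.95 for TRIB3 with ASNS, 0.80 for DDIT3 with HERPUD1, 0.79 for TRIB3 with HERPUD1 and -0.93 for DDIT4 with HSPA5. These pairs are among the largest in size of all member pairs, and others were near 0, such as ATF3 with ASNS at -0.02. The values are descriptions over 9 arrays, of which the endoderm-high array is 1, and no p is given.

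The sensors of the endoplasmic reticulum and the proteases that cut ATF6 had 0 calls of 6 tested, with a median of -0.03 in treated HSF-6 (S9) and 0.05 in treated HSF-6 (8). Of the proteases, MBTPS2 had log2 changes of -0.36 ± 0.16 in treated HSF-6 (S9) and -0.36 ± 0.16 in treated HSF-6 (8), and MBTPS1 had 0.30 ± 0.18 in treated HSF-6 (S9) and 0.22 ± 0.18 in treated HSF-6 (8). Of the 16 chaperones 0 were called, with a median of 0.02 in treated HSF-6 (S9) and 0.06 in treated HSF-6 (8). SIL1, a nucleotide exchange factor of HSPA5, had -0.93 ± 0.38 (adjusted p = 0.311) in treated HSF-6 (S9) and -0.94 ± 0.38 (adjusted p = 0.435) in treated HSF-6 (8), and HYOU1, a large chaperone, had 0.25 ± 0.30 in treated HSF-6 (S9) and 0.28 ± 0.30 in treated HSF-6 (8). Of 19 genes for degradation and secretion 0 were called, with a median of -0.12 in treated HSF-6 (S9) and -0.02 in treated HSF-6 (8). SEC24D, a coat protein of export vesicles, had -0.91 ± 0.33 (adjusted p = 0.247) in treated HSF-6 (S9) and -0.42 ± 0.33 in treated HSF-6 (8), and EDEM3, which trims sugars of misfolded proteins, had 0.03 ± 0.59 in treated HSF-6 (S9) and 0.48 ± 0.59 in treated HSF-6 (8).

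Neighbouring stress responses had 0 called genes, beside 1.18% of all genes in treated HSF-6 (S9) and 0.851% in treated HSF-6 (8), shares at which lists this short are not informative. The median of 9 cytosolic and mitochondrial heat shock genes was -0.10 in treated HSF-6 (S9) and -0.10 in treated HSF-6 (8). HSPE1, the mitochondrial co-chaperonin, had log2 changes of -0.59 ± 0.17 (adjusted p = 0.159) in treated HSF-6 (S9) and -0.42 ± 0.17 (adjusted p = 0.459) in treated HSF-6 (8), and HSPB1 had 0.39 ± 0.38 in treated HSF-6 (S9) and 0.41 ± 0.38 in treated HSF-6 (8). The median of 9 targets of NRF2, the oxidative stress factor, was -0.14 in treated HSF-6 (S9) and 0.02 in treated HSF-6 (8), and OSGIN1 among them had -0.45 ± 0.36 in treated HSF-6 (S9) and 0.46 ± 0.36 in treated HSF-6 (8). The median of 11 immediate early genes was -0.21 in treated HSF-6 (S9) and -0.04 in treated HSF-6 (8). IER3 among them had 0.36 ± 0.54 in treated HSF-6 (S9) and 1.00 ± 0.54 in treated HSF-6 (8), with a signal of 4349.9 on the endoderm-high array and 657 to 1142 on the others.

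Markers of cell state were listed to show what the cultures held. The median of 13 pluripotency genes was -0.15 in treated HSF-6 (S9) and -0.19 in treated HSF-6 (8), and 0 were called. In each treated group 8 of 13 had estimates below 0, against 49.4% of all genes in treated HSF-6 (S9) and 49.5% in treated HSF-6 (8). DPPA2 had -0.04 ± 0.29 in treated HSF-6 (S9) and 0.62 ± 0.29 in treated HSF-6 (8), and PODXL had -0.15 ± 0.25 in treated HSF-6 (S9) and -0.55 ± 0.25 in treated HSF-6 (8). The median of 12 endoderm markers was 1.25 in treated HSF-6 (S9) and 1.74 in treated HSF-6 (8). In treated HSF-6 (S9) 2 of 12 had estimates below 0, CER1 at -0.86 (adjusted p = 0.756) and SERPINA1 at -0.17 (adjusted p = 0.92). In treated HSF-6 (8) 0 of 12 did, and the shares of all genes were those given above. There CER1 had 0.58, with a signal of 4489 on the endoderm-high array and 188 to 558 on the other 8 arrays. FLRT3 was the 1 endoderm marker of 12 called, beside 1.18% of all genes in treated HSF-6 (S9) and 0.851% in treated HSF-6 (8). It rose by a log2 change of 2.90 ± 0.33 (adjusted p = 0.00381) in treated HSF-6 (S9) and 2.96 ± 0.33 (adjusted p = 0.00307) in treated HSF-6 (8). The median of 13 fibroblast markers was 0.41 in treated HSF-6 (S9) and 0.59 in treated HSF-6 (8), and 0 were called. Estimates were below 0 for 4 of 13 in treated HSF-6 (S9) and 3 of 13 in treated HSF-6 (8), against the same shares of all genes. FN1 had 1.41 ± 0.30 (adjusted p = 0.0662) in treated HSF-6 (S9) and 1.32 ± 0.30 (adjusted p = 0.108) in treated HSF-6 (8), and COL1A1 had 0.62 ± 0.26 in treated HSF-6 (S9) and 1.10 ± 0.26 in treated HSF-6 (8). On the other side of 0, and named after their values were seen, TAGLN had -1.38 (adjusted p = 0.349) in treated HSF-6 (S9) and -0.87 (adjusted p = 0.782) in treated HSF-6 (8), and THY1 had -0.97 (adjusted p = 0.404) in treated HSF-6 (S9) and -0.72 (adjusted p = 0.758) in treated HSF-6 (8). Their part in the values of the 10 genes was not tested.

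**Figure D4:**
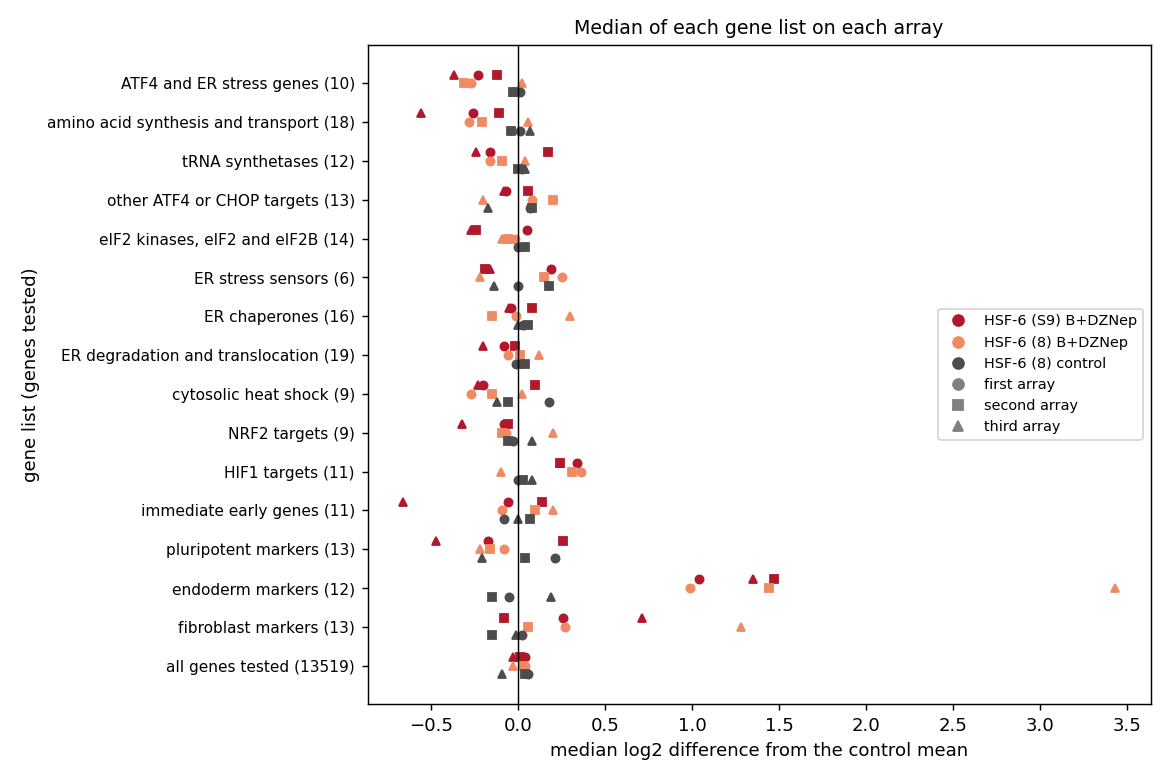
Median log2 difference from the control mean of each gene list on each array, with the number of genes tested in brackets; colour gives the group and marker shape the array within its group. The endoderm list lies between 0.99 and 3.43 on the treated arrays, and the 10 members between -0.37 and 0.02.

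Between the treated sublines no member differed beyond the spread of the arrays, and every adjusted p was 0.989. The log2 differences, HSF-6 (S9) over HSF-6 (8), ran from -0.38 for ATF3 (95% interval -0.87 to 0.11) to 0.84 for DDIT4 (-0.23 to 1.90), with a median of -0.16, against -0.007 over all genes. The signals of the sublines overlapped for all 10 genes, where 6.38% of all genes did not overlap. The intervals for ATF4 (-0.43 to 0.77), CHAC1 (-0.55 to 0.27), HSPA5 (-0.76 to 0.28) and HERPUD1 (-0.51 to 0.59) lay within 2-fold. So did those of every other member except DDIT4. These intervals measure the spread between these arrays, which may be technical, so they do not exclude a larger difference between separate cultures. The DDIT4 difference was 0.16 when the endoderm-high array was left out and 1.19 when the first treated HSF-6 (8) array was.

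The genes whose log2 signal was most like that of the 6 downstream members (ATF3, DDIT3, DDIT4, TRIB3, ASNS and CHAC1) over the 9 arrays, taken as the mean of their log2 signals after each was scaled to the same SD, were ranked among 13509 others. They were KLHDC7A at a Pearson r of 0.990, PSMA3 at 0.988, UTP18 at 0.977, MRS2 at 0.967 and SNRPF at 0.966. KLHDC7A differed from the control mean by -0.77, -0.34 and -1.42 log2 units in treated HSF-6 (S9) and by -0.78, -0.91 and -0.34 in treated HSF-6 (8). Of the 6 members, DDIT4 varied opposite to each of the others, at r from -0.78 with ASNS to -0.42 with DDIT3. The mean therefore does not describe DDIT4. For the mean of HSPA5, XBP1 and HERPUD1, scaled likewise, the most similar genes were TXNRD2 at 0.977, FILIP1L at 0.956, TOX2 at 0.945, and PEA15 and GDF3 at 0.943. TXNRD2 differed from the control mean by -0.82, -0.64 and -0.71 in treated HSF-6 (S9) and by -1.33, -1.19 and 1.69 in treated HSF-6 (8), with the endoderm-high array last. These are the best of many ranked values over 9 arrays and carry no test.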

How the data were processed

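RNA was measured on 9 arrays, 3 in each group. The deposited table holds 1 signal intensity per probe set and array on a linear scale, made by the authors with Affymetrix Expression Console and MAS5 per the submitters' processing notes; versions and detection calls were not given in the sources used here. Its 54675 probe sets include 62 controls, which were left out; 41091 of the others name 1 gene. Each array's trimmed mean (2% off each end) was about 500.06 and its median 64.8 to 82.9. The number of arrays limits the precision.

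From these, log2(signal + 16) was tested with limma 3.58.1 in R 4.3.3, over all 9 arrays in 1 fit without a block, at 6 residual degrees of freedom. The filter kept 29328 probe sets, and 13519 genes were represented by their brightest kept probe set. P-values were Benjamini-Hochberg adjusted over all genes or all kept probe sets. Fold changes on this scale understate those of dim genes. The test was checked on simulated data with noise drawn independently for each gene and array. Such data do not copy deviations that many genes of an array share. The gene members, the lists and the tests were chosen with earlier results of these data known. Named were all members, per list the called genes (otherwise the 2 largest estimates in treated HSF-6 (8) against the control), and the 5 genes most like each member group. Alternatives were another normalization, filter, added value, probe-set rule, the blocks, only the arrays compared, and each array left out.

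The prime marks may pair arrays. Deviations from group means of same-marked arrays correlated at 0.19, 0.20 and 0.26 between the treated sublines and at 0.21, 0.26 and 0.49 between treated HSF-6 (8) and the control. Differently marked arrays correlated at -0.22 to 0.03 and at -0.38 to 0.32, so in the second case some did so as strongly as same-marked ones. Promoter windows are from RefSeq.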

Additional observations from a re-analysis of the deposited data

How the results depend on the processing

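Over 21 settings (9 of which leave out 1 array), 591 of 624 member values kept their direction and their side of the threshold, 31 changed sign and 2 passed the threshold. The values that changed sign were small, at most 0.29 in size, with adjusted p of at least 0.537. Of 123 counts of calls, 121 were at 0. With the replicate block 0 members were called in each comparison, and likewise 0 when the third arrays formed a batch; neither block changed a call. Between treated HSF-6 (S9) and the control, same-marked arrays correlated at -0.02, 0.08 and 0.34. The main fit took the marks as pairs in no comparison. With the replicate block, DDIT4 in treated HSF-6 (S9) against the control had an adjusted p of 0.137.

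With only the 6 arrays compared, 1 member was called in treated HSF-6 (S9) against the control, DDIT4 at 1.22 (adjusted p = 0.0479); over all 21 alternatives its adjusted p ran from 0.0196 to 0.471. Log2 values that changed sign follow, each against the control unless stated. Quantile normalization gave 0.02 for ATF4 and -0.01 for TRIB3 in treated HSF-6 (8). Averaging each gene's probe sets gave -0.15 for TRIB3 in treated HSF-6 (8) and 0.07 for HSPA5 in treated HSF-6 (S9). With the third array of each group dropped, the values were -0.13 for TRIB3, -0.28 for HSPA5 and -0.15 for HERPUD1 in treated HSF-6 (8), 0.06 for TRIB3 in treated HSF-6 (S9), and 0.18 for TRIB3, 0.01 for ASNS, 0.10 for CHAC1 and 0.03 for HSPA5 between the sublines. The cause was not tested.

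Leaving out 1 array at a time, the members called in treated HSF-6 (S9) ranged from 0 to 1. In treated HSF-6 (8), ATF4 ranged from -0.15 to 0.07, TRIB3 from -0.29 to 0.32, HERPUD1 from -0.26 to 0.17 and HSPA5 from -0.24 to 0.18. In treated HSF-6 (S9), ATF4 ranged from -0.16 to 0.34 and HERPUD1 from -0.06 to 0.16. Between the sublines, ATF4 ranged from -0.15 to 0.35, HERPUD1 from -0.12 to 0.31, TRIB3 from -0.55 to 0.06, HSPA5 from -0.38 to 0.04 and CHAC1 from -0.25 to 0.01.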
